A study of Mus musculus with 12 samples.

Results

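The genes described here are 10 members of the transcriptional response to p53: Phlda3, Ccng1, Trp53inp1, Cdkn1a, Mdm2, Bbc3, Pmaip1, Perp, Sesn2 and Plk2. They were taken as every probe set of the expression array whose only annotated gene symbol was one of these names. This gave 16 of 45037 probe sets and 10 of the 17097 genes measured, so no member was missing. The values are log2 intensities, on which a step of 1 doubles the signal.

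RNA came from embryonic mouse brain on 12 arrays in 4 groups of 3, on a mixed genetic background. In the first experiment forebrain and midbrain were dissected together at E11.5 (E gives the embryonic day). The YAP overexpression group carried TetO-YAP1, a doxycycline-dependent allele of YAP1-S127A, together with Nes-rtTA, in which the Nestin promoter places the doxycycline-responsive activator in neural progenitors. The YAP control group carried Nes-rtTA alone, and the dams of that experiment ate food with 200 mg/kg doxycycline from E7.5. In the second experiment dorsal telencephalon was dissected at E13.5 from Nf2F/F;Emx1-Cre embryos (Nf2 knockout) and Nf2F/+;Emx1-Cre embryos (Nf2 control). All 6 of those embryonic samples carried Emx1-Cre, which acts in the telencephalon, so the controls keep 1 working Nf2 copy in the Cre-expressing cells and other cells keep theirs. YAP is the co-activator that the Hippo pathway holds in check, and Merlin, the product of Nf2, feeds into that pathway from above its kinases. The labels number the arrays but do not say that each came from a separate embryo, so the p-values rest on the spread of these samples, some or all of which may be technical.

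p53 is a transcription factor that accumulates after DNA damage and other stress and binds a pair of short half-site motifs near its target genes. Its targets divide broadly into genes that stop the cell cycle, genes that promote death, genes that adjust metabolism and growth signalling, and genes such as Mdm2 that switch p53 off again. In the embryonic brain, neural progenitors are known to be sensitive to p53-driven death. Trp53 itself was not analysed here.

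Sequences upstream of 3 members are shown because Ccng1 and Phlda3 rose with YAP overexpression, and Cdkn1a followed the same order over the overexpression arrays without passing the threshold. Each is a RefSeq window on GRCm38.p6, from 250 bases before to 50 bases after an annotated start, written along the gene. Capitals mark a stretch with at most 1 mismatch to the p53 consensus of 20 bases, a pair of decamers with no spacer, searched on both strands, which are equivalent for this motif. The Ccng1 window lies at chr11:40755237-40755536 on the minus strand, the Cdkn1a window of the upstream start at chr17:29090729-29091028 on the plus strand, and the Phlda3 window at chr1:135765835-135766134 on the plus strand.
Ccng1: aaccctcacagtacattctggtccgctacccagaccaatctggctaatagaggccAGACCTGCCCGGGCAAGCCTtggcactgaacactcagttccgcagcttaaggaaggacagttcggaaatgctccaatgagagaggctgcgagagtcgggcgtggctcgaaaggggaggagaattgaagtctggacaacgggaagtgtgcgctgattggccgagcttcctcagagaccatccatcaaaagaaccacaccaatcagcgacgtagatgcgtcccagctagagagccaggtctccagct
Cdkn1a: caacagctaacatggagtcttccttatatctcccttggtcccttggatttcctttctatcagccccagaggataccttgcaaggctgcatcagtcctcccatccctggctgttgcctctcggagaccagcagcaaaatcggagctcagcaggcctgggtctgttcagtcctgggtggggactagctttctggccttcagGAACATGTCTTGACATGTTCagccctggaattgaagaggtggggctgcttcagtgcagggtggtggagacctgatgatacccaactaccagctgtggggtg
Phlda3: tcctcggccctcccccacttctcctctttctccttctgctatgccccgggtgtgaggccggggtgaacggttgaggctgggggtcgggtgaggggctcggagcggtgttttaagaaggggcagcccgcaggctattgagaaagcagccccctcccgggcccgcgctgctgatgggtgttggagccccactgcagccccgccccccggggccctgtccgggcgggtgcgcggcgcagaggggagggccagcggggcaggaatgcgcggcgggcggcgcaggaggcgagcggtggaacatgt

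In Ccng1 the stretch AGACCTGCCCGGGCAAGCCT, with 1 mismatch, covers bases 195 to 176 before the start. In Cdkn1a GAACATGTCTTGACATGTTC, also with 1 mismatch, covers bases 51 to 32 before the upstream start. The best stretch in the Phlda3 window had 5 mismatches. RefSeq windows were used for 7 of the 10 members, 10 windows in all. The remaining 8 member windows had at least 3 mismatches, among them the second Cdkn1a window at chr17:29093519-29093818 with 5. Of 32851 windows of all genes, 29 (0.0883%) held a stretch with at most 1 mismatch. These are matches of letters and not measured binding, and p53 sites outside these windows were not searched.

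With YAP overexpression, 3 of the 10 members were called, meaning an adjusted p under 0.05 in a limma fit over all genes: Phlda3 and Ccng1 rose and Trp53inp1 fell. Over all genes 6.31% were called, 2.67% higher and 3.64% lower. The median log2 difference of the members was 0.20, against -0.01 over all genes, and 5 members had an unadjusted p under 0.05, as did 19.6% of all genes. The overexpression and control arrays did not overlap in 5 members, against 21.3% of all genes. In 4 of these, Phlda3, Ccng1, Cdkn1a and Sesn2, every overexpression array lay above every control array, against 9.72% of all genes, and in Trp53inp1 every one lay below. At the level of probe sets, 5 of the members' 16 were called, 4 higher and 1 lower, against 3.78% of all probe sets. They were all 3 Ccng1 probe sets, that of Phlda3 and the brighter one of Trp53inp1. The probe sets thus repeat the same 3 members and add no other. These arrays measure whole tissue, in which fewer cells of a type and less RNA per cell cannot be told apart.

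**Figure D1:**
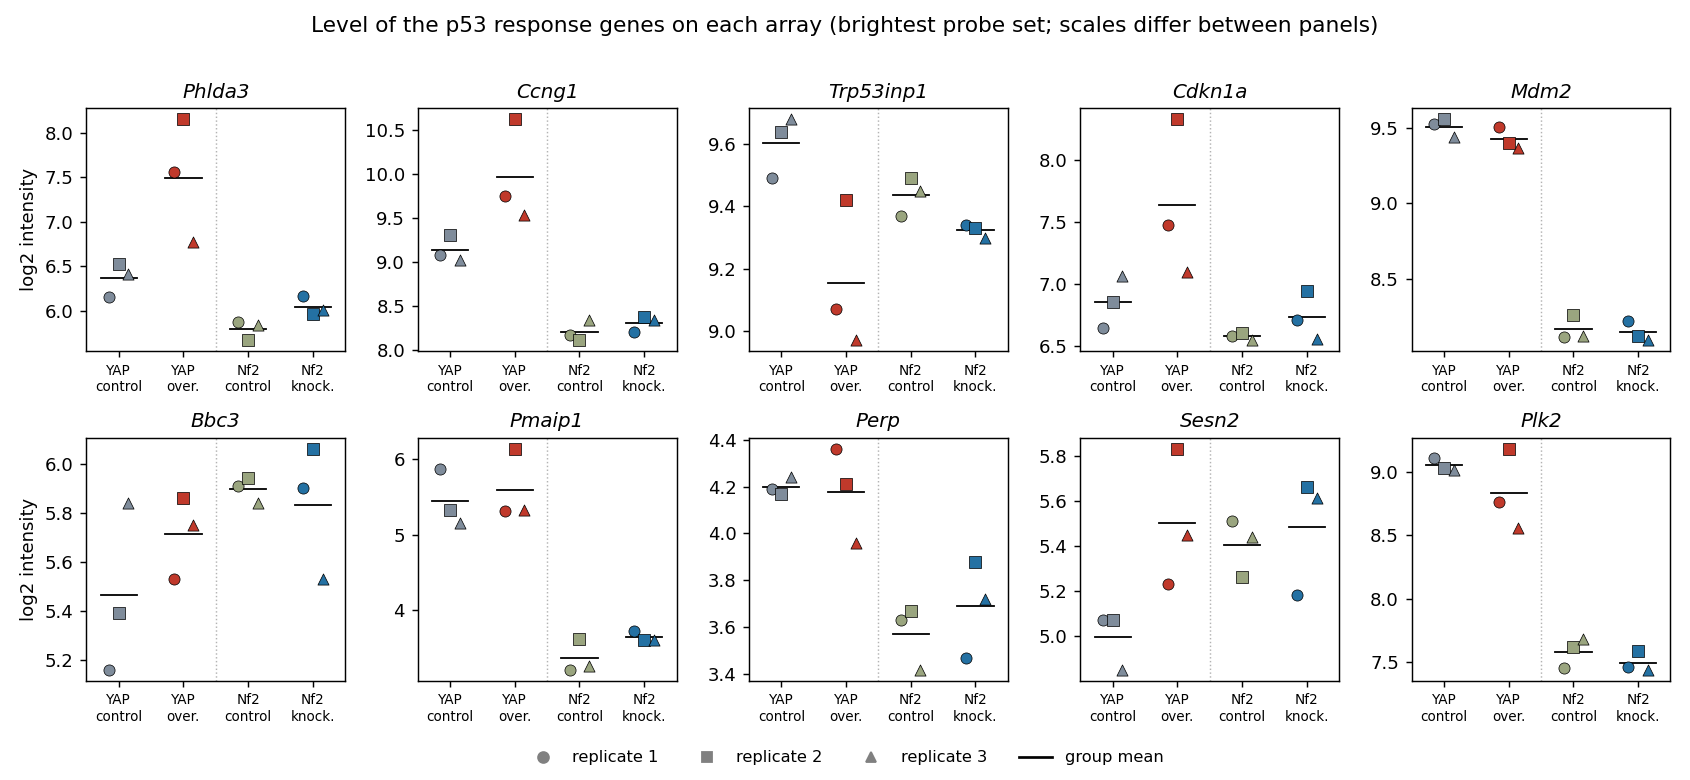
Level of each of the 10 members on all 12 arrays. The y axis of each panel is the log2 intensity of the gene's brightest probe set, the x axis the 4 groups, each point is 1 array with its replicate number as the shape, and each bar is the mean of 3 arrays. In the Phlda3 panel the overexpression arrays at 7.56, 8.15 and 6.77 are spread more widely than the control arrays at 6.15, 6.53 and 6.41.

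Among the members that act on growth and the cell cycle, Phlda3 had the largest difference of the 10. Its protein has a pleckstrin homology domain with which it restrains Akt signalling. The control arrays read 6.15, 6.53 and 6.41 and the overexpression arrays 7.56, 8.15 and 6.77. The groups did not overlap, but overexpression replicate 3 stood only 0.41 above the control mean, where replicates 1 and 2 stood 1.20 and 1.79 above it. The means were 6.36 ± 0.19 and 7.49 ± 0.69 (SD, n = 3), a log2 difference of 1.13 (SE 0.25, 95% interval 0.58 to 1.68), or 2.19-fold (adjusted p = 0.02). The call was lost without control replicate 1, control replicate 3 or overexpression replicate 1, where the adjusted p reached 0.0756. Without overexpression replicate 2 it held at 0.80.

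Ccng1 encodes cyclin G1, a long-known p53 target that recruits a phosphatase to Mdm2. Its brightest probe set read 9.08, 9.31 and 9.02 in the controls and 9.75, 10.62 and 9.53 with overexpression. Replicate 2 was again the highest and replicate 3 the lowest, and none of the 3 reached down to the controls. The log2 difference was 0.83 (SE 0.21, 95% interval 0.37 to 1.29), or 1.78-fold (adjusted p = 0.038). Its other probe sets moved further. One read 6.67, 7.09 and 6.75 against 7.90, 8.42 and 7.69, a difference of 1.17 (SE 0.16), and the next read 6.48, 6.43 and 6.18 against 7.62, 8.24 and 6.89, a difference of 1.22 (SE 0.24). Tested over all 45037 probe sets with limma, all 3 Ccng1 probe sets rose, with adjusted p of 0.0478, 0.00164 and 0.0135. The gene-level call of the brightest probe set was lost without any 1 of the control arrays and without overexpression replicate 1, where the adjusted p reached 0.127. Without overexpression replicate 2 it held, at a smaller difference of 0.50.

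Cdkn1a encodes p21, the inhibitor of cyclin-dependent kinases through which p53 arrests the cell cycle. Its brighter probe set read 6.65, 6.86 and 7.07 in the controls and 7.48, 8.33 and 7.10 with overexpression. The groups did not overlap, yet overexpression replicate 3 exceeded the highest control only narrowly. The log2 difference was 0.78 (SE 0.24, 95% interval 0.26 to 1.29) and was not called (adjusted p = 0.0798). The other probe set read 6.29, 6.28 and 6.75 against 6.78, 7.85 and 6.30, where overexpression replicate 3 fell among the controls, and differed by 0.54 (SE 0.29; limma adjusted p = 0.416 over all probe sets). Without overexpression replicate 3 the brighter probe set was called, with a difference of 1.05 (adjusted p = 0.0195). It was not called without any other single array, with 0.43 without overexpression replicate 2 and adjusted p of up to 0.217.

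Plk2, a polo-like kinase with a role in centriole duplication, read 9.11, 9.03 and 9.01 in the controls and 8.76, 9.18 and 8.56 with overexpression. Replicates 1 and 3 were below all controls and replicate 2 above them. The difference of -0.22 (SE 0.13, 95% interval -0.50 to 0.07) was not called (adjusted p = 0.406). Without replicate 2 it was -0.39 and called lower (adjusted p = 0.0319), so the direction of Plk2 was opposite in that array.

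Sesn2, a sestrin that senses leucine and holds back mTORC1, read 5.07, 5.07 and 4.85 in the controls and 5.23, 5.83 and 5.45 with overexpression. All overexpression arrays were above all controls, and the difference of 0.51 (SE 0.16, 95% interval 0.17 to 0.85) was not called (adjusted p = 0.0838). Without overexpression replicate 1 it was called (adjusted p = 0.048). Its other, dimmer probe set differed by 0.11 (limma adjusted p = 0.669 over all probe sets). The control readings of the brighter probe set lay below the medians of their arrays, 5.09, 5.08 and 5.10.

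Trp53inp1, which encodes a nuclear protein that promotes p53 activity and autophagy, was the member that fell. Its brighter probe set read 9.49, 9.64 and 9.68 in the controls and 9.07, 9.42 and 8.97 with overexpression. The groups did not overlap, and replicate 2 lay closest to the controls. The log2 difference was -0.45 (SE 0.10, 95% interval -0.68 to -0.22; adjusted p = 0.0242). The dimmer probe set gave 4.77, 4.67 and 4.70 against 4.88, 4.81 and 4.74, a difference of 0.10 in the other direction (limma adjusted p = 0.616 over all probe sets), and the mean of the probe sets was not called (-0.18, adjusted p = 0.193). The call was also lost without control replicate 2 or 3 or overexpression replicate 1 or 3, where the adjusted p reached 0.094.

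Mdm2, the ubiquitin ligase that marks p53 for destruction and is itself a p53 target, was close to its control level. The controls read 9.53, 9.56 and 9.44 and the overexpression arrays 9.51, 9.40 and 9.37. The difference was -0.08 (SE 0.07, adjusted p = 0.61), and its 95% interval of -0.24 to 0.08 does not reach the size of the Phlda3 or Ccng1 change. The second Mdm2 probe set differed by -0.16 (limma adjusted p = 0.629 over all probe sets).

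The 3 members grouped here under cell death, Bbc3, Pmaip1 and Perp, were not called, and other members may act in death too. Bbc3, which encodes the BH3-only protein Puma, read 5.16, 5.39 and 5.84 in the controls and 5.53, 5.86 and 5.75 with overexpression, a difference of 0.25 (95% interval -0.11 to 0.61; adjusted p = 0.469) that ran from 0.10 without control replicate 1 to 0.44 without control replicate 3. Pmaip1, which encodes Noxa, read 5.87, 5.33 and 5.15 against 5.31, 6.14 and 5.33, a difference of 0.14 (95% interval -0.34 to 0.63; adjusted p = 0.797). Both groups overlapped in both genes, and the sign for Pmaip1 turned to -0.13 without overexpression replicate 2 and to -0.01 without control replicate 3. Perp, a membrane protein of desmosomes and an effector of p53-dependent death, read 4.19, 4.17 and 4.24 against 4.36, 4.21 and 3.96. These Perp values lay below the array medians of 5.03 to 5.10, and the difference of -0.02 (adjusted p = 0.944) turned to 0.01 when array medians were subtracted and to 0.08 without overexpression replicate 3.

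**Figure D2:**
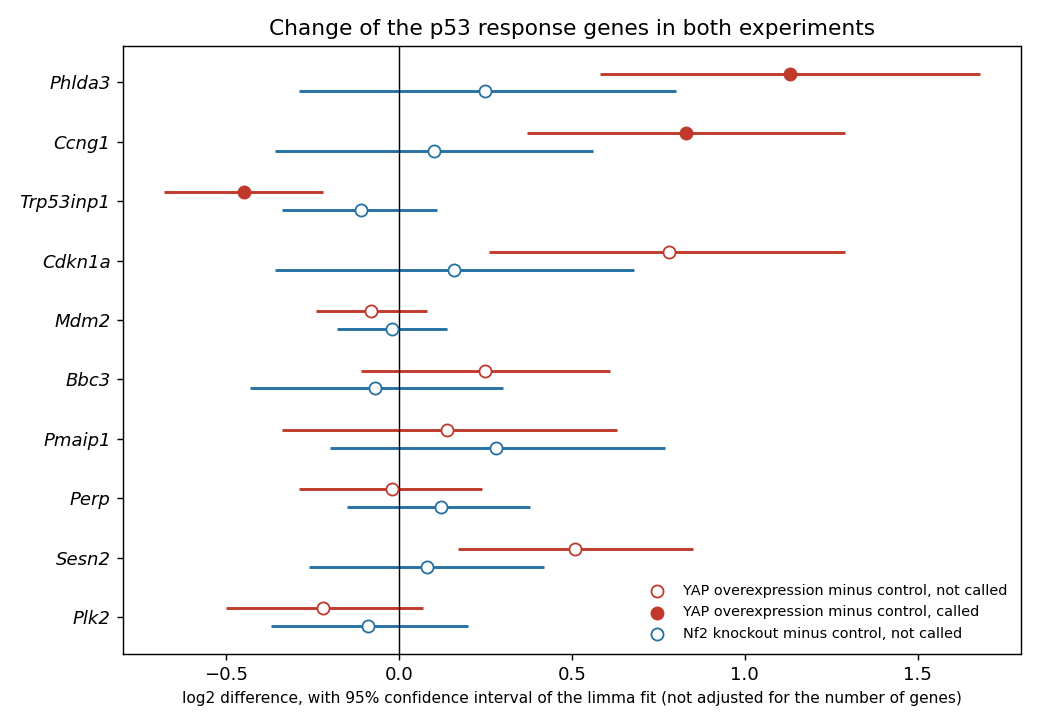
Log2 difference from the control mean for the 10 members in each experiment. The x axis is the log2 difference, points are estimates of the limma fit over 3 arrays against 3, lines are 95% intervals, and filled points are called at an adjusted p under 0.05. The filled points are Phlda3 (1.13), Ccng1 (0.83) and Trp53inp1 (-0.45) with YAP overexpression, and no point of the Nf2 knockout is filled.

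The 3 overexpression arrays differed strongly from one another in these genes, which was known when the genes were chosen and is given as a description. Over the 10 members, the mean log2 difference from the control mean was 0.19 in replicate 1, 0.65 in replicate 2 and 0.02 in replicate 3. At least 0.5 above the control mean were 3, 5 and 0 members, whereas 2.59%, 2.35% and 3.01% of all genes were. Replicate 2 was the highest of the 3 for 8 members, every one except Mdm2 and Perp, and was the lowest for 0. Replicate 3 was the lowest for 7 members and the highest for 0. Over all genes the replicates were highest in 35.5%, 32.4% and 32.1% and lowest in 31.4%, 33.5% and 35.1%.

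The difference from the control mean in replicates 1, 2 and 3 was 0.61, 1.48 and 0.39 for Ccng1 and 0.62, 1.47 and 0.24 for Cdkn1a, close to each other in each array. For Sesn2 it was 0.23, 0.83 and 0.45. Pmaip1 was above the control mean in replicate 2 alone, at -0.14, 0.69 and -0.12. Trp53inp1 was below it in all 3 arrays, at -0.53, -0.18 and -0.63. Across the overexpression arrays the SD was 0.69 for Phlda3, 0.63 for Cdkn1a, 0.58 for Ccng1 and 0.47 for Pmaip1, and only 0.339%, 0.509%, 0.743% and 1.5% of all genes had a larger one there. The median SD of the members was 0.31 in that group against 0.121 for all genes. In YAP controls it was 0.14 against 0.108, in Nf2 controls 0.114 against 0.095, and in Nf2 knockouts 0.100 against 0.101. Members in the top 5% of SD numbered 4 with overexpression, 2 in YAP controls and 0 in each Nf2 group. Those 2 were Pmaip1 (SD 0.37, 1.68% of all genes larger) and Bbc3 (0.35, 2.36%). The wide spread of Pmaip1 was thus present in the YAP controls too.

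**Figure D3:**
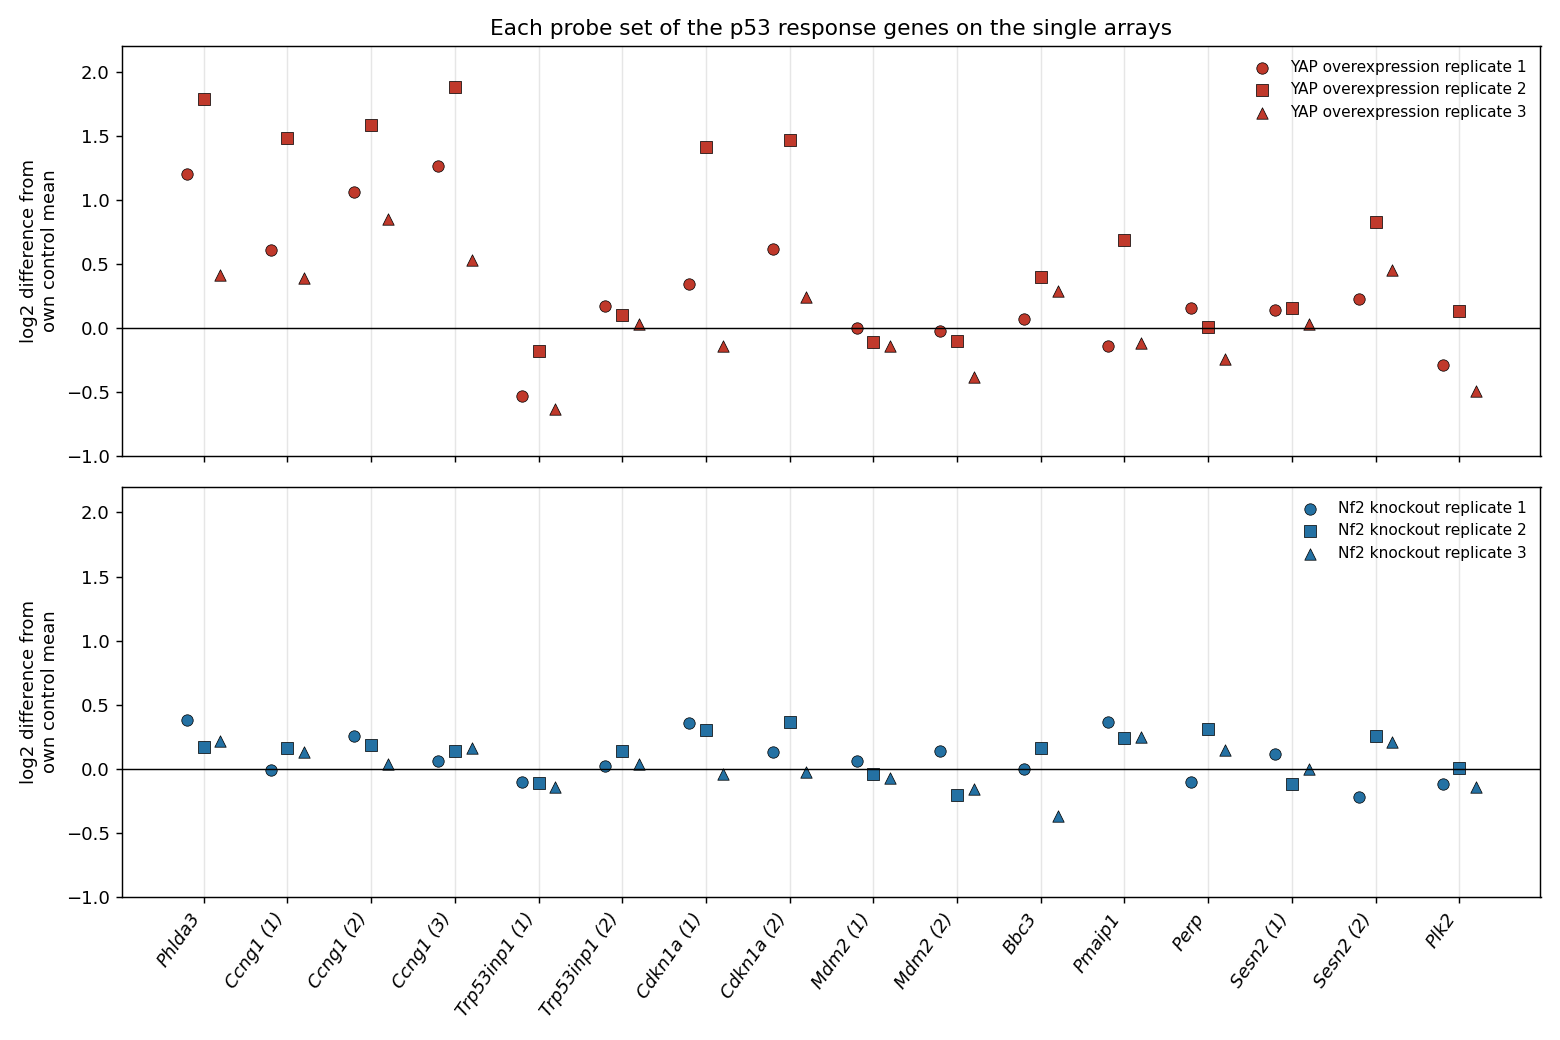
Log2 difference of each manipulated array from the mean of its own 3 controls, for all 16 probe sets of the 10 members. Each point is 1 array, with its replicate number as the shape, and the panels are the YAP overexpression and the Nf2 knockout experiment. The x axis lists the probe sets and the y axis is the log2 difference. With YAP overexpression replicate 2 lies highest for most probe sets, at 1.79 for Phlda3. Replicate 3 lies on both sides of 0, from -0.63 for Trp53inp1 to 0.45 for Sesn2 among the brightest probe sets.

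Some other measures followed that order over the overexpression arrays, with replicate 2 highest and replicate 3 lowest, and others did not. The YAP reporter Ccn1, a secreted matrix protein, read 8.34, 8.20 and 8.10 against controls of 6.09, 6.52 and 6.23, and Ccn2 read 10.34, 10.17 and 9.96 against 7.79, 8.04 and 7.13. Both were thus similarly raised in the 3 arrays and highest in replicate 1. Yap1 itself read 11.35, 11.23 and 11.33 against 11.07, 10.99 and 11.05 and was not called (0.27, adjusted p = 0.0551, though it was 0.0487 without overexpression replicate 2, 0.0287 with array medians subtracted and 0.0202 with dimmer genes left out), and it is not known here if the transgene is read by its probes.

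The mean of 11 neuron markers was 8.93, 9.28 and 8.81 with overexpression against 9.60, 9.49 and 9.75 in controls, and 7 of them fell. It was thus nearest the controls in replicate 2, where Trp53inp1 was too. The mean of 9 forebrain progenitor markers was 9.47, 9.72 and 9.57 against 9.82 to 10.03 in controls, with 5 fallen, and that of 7 ventral telencephalon markers was 6.14, 6.12 and 5.72 against 7.11, 7.27 and 7.57, with 6 fallen. The part of these shifts in the p53 response genes was not tested. Of 6 midbrain, 7 erythroid, 8 endothelial, 10 mesenchymal and 8 microglial markers none was called (unadjusted limma p under 0.05 in 0, 2, 0, 3 and 0), and of 10 surface ectoderm markers 1 rose and 1 fell. For mesenchymal markers, control means ran from 7.23 to 7.60 and overexpression means from 7.20 to 7.34. Microglial means were 5.50, 5.62 and 5.47 with overexpression, against 5.53 to 5.61 in controls. Midbrain means were 6.67, 6.70 and 6.54, against 6.72, 6.49 and 6.61 in controls. Like the neuron mean, both were highest in replicate 2 and lowest in replicate 3. Progenitor and endothelial means were highest in replicate 2 but lowest in replicate 1. Ventral, erythroid, mesenchymal and surface ectoderm means were not highest in replicate 2. A link to the p53 response genes was not tested. The lowest correlation between arrays of one group was 0.994, over genes.

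In the Nf2 knockout none of the 10 members was called by limma, and none had an unadjusted p under 0.05, against 0.252% and 6.24% of all genes. The lowest adjusted p was 0.938. The fit shares 1 spread over all 4 groups, and in a fit to the 6 Nf2 arrays alone 0 members were again called by limma, but 2 had an unadjusted p under 0.05, with a lowest adjusted p of 0.539. In the shared fit the median log2 difference was 0.09 against 0.00 over all genes. Here too every knockout array was above every control for 1 member, Phlda3, and below for 1 member, Trp53inp1, a total of 2 members without overlap, against 12.7% of all genes. Of all genes 6.6% had knockout arrays all above the controls. Of the 16 probe sets limma called 0, against 0.133% of all probe sets. None of the 16 had an unadjusted p under 0.05, a threshold for which the share over all probe sets was not computed. The Nf2 gene itself read 8.41, 8.66 and 8.51 in controls and 8.06, 8.27 and 8.11 in knockouts. That difference of -0.38 was not called (limma adjusted p = 0.246), nor was it in any alternative run. With the mean of the Nf2 probe sets it was -0.21. Ccn1 rose from 7.31, 7.25 and 7.30 to 8.44, 8.29 and 8.18. The levels below are not set against those at E11.5, because the 2 experiments were normalized separately.

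Phlda3 read 5.87, 5.67 and 5.84 in Nf2 controls and 6.17, 5.96 and 6.01 in knockouts, a difference of 0.25 (SE 0.25, 95% interval -0.29 to 0.80; adjusted p = 0.959). Ccng1 read 8.17, 8.11 and 8.34 against 8.20, 8.37 and 8.34, a difference of 0.10 (95% interval -0.36 to 0.56; adjusted p = 0.99). Cdkn1a read 6.58, 6.61 and 6.55 against 6.71, 6.95 and 6.56, a difference of 0.16 (adjusted p = 0.98). In none of these 3 did a single knockout array stand as far above its controls as overexpression replicate 2 did in the other experiment. Plk2 read 7.45, 7.62 and 7.68 against 7.46, 7.59 and 7.44, and Sesn2 5.51, 5.26 and 5.44 against 5.18, 5.66 and 5.61. Trp53inp1 read 9.37, 9.49 and 9.45 against 9.34, 9.33 and 9.30, a difference of -0.11 (adjusted p = 0.954).

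Mdm2 read 8.11, 8.26 and 8.12 in Nf2 controls and 8.22, 8.12 and 8.09 in knockouts, and Bbc3 read 5.91, 5.94 and 5.84 against 5.90, 6.06 and 5.53. Both groups overlapped in both genes. Pmaip1 read 3.20, 3.61 and 3.25 against 3.72, 3.59 and 3.60, the widest difference of the 10 in this experiment at 0.28 (95% interval -0.20 to 0.77; adjusted p = 0.938). Perp read 3.63, 3.67 and 3.42 against 3.47, 3.88 and 3.72. Pmaip1 and Perp were dim here, below the array medians of 4.30 to 4.42. The mean over the members was 0.04, 0.15 and 0.02 above the control mean in the 3 knockout arrays, with 0 members at least 0.5 above it in any of them.

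The difference between the effect of YAP overexpression and that of Nf2 knockout was tested in the same limma fit. It passed for 0 of the 10 members, against 0.281% of all genes, while 3 members had an unadjusted p under 0.05, as did 10.1% of all genes. These were Phlda3 (0.88, SE 0.35, 95% interval 0.11 to 1.65; adjusted p = 0.419), Ccng1 (0.73; adjusted p = 0.426) and Trp53inp1 (-0.34; adjusted p = 0.471). A call in one experiment and not in the other is therefore not shown to be a difference between them. Without overexpression replicate 3, Phlda3 passed (1.24, adjusted p = 0.0449). Manipulation, age and dissected tissue differ together between the experiments and cannot be told apart.

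Beyond the 10 members, 94 related genes were measured in lists of p53 regulators, other p53 targets, apoptosis genes, family relatives and stress genes. With YAP overexpression 14 of them were called, 8 higher and 6 lower, or 14.9%, against 6.31% of all genes, and their median log2 difference was 0.04. In the Nf2 knockout limma called 0 of them, against 0.252% of all genes. There 7 had an unadjusted p under 0.05, as did 6.24% of all genes. The lists were chosen with earlier results of these data known, so these shares are a description and no independent test.

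Among 17 genes of p53 regulation 1 rose and 1 fell. Ppp1r13l, which encodes the p53 inhibitor iASPP, rose by 0.41 (SE 0.10, adjusted p = 0.0257), and Ppp1r13b, which encodes ASPP1, a protein that steers p53 towards death genes, fell by 0.42 on the log2 scale (adjusted p = 0.0266). The call of Ppp1r13l was lost without any 1 array of the experiment except overexpression replicate 2, and that of Ppp1r13b without control replicate 2 or 3 or overexpression replicate 3, with adjusted p of up to 0.0893 and 0.108. The Ppp1r13l difference also shrank to 0.18 with the mean of its probe sets (adjusted p = 0.469) and to 0.28 without probe sets of the less specific _x_at and _s_at kinds (adjusted p = 0.406). Mdm4, the relative of Mdm2 that also restrains p53, differed by -0.18 and was not called.

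Among 15 further p53 targets of arrest and growth, 1 rose and 3 fell. Epha2, an ephrin receptor tyrosine kinase, read 5.78, 5.73 and 5.86 in controls and 7.04, 7.32 and 6.91 with overexpression, a rise of 1.30 (SE 0.12), or 2.46-fold (adjusted p = 7.1e-05). All 3 overexpression arrays were far above the controls. Btg2, an antiproliferative gene switched on in neurogenic progenitors, read 9.89, 9.58 and 9.88 against 8.97, 9.34 and 8.88 (-0.72, adjusted p = 0.00533). Ccng2, which encodes cyclin G2, the relative of cyclin G1, read 10.52, 10.67 and 10.79 against 10.07, 10.04 and 10.07 (-0.60, adjusted p = 0.00105), so the relatives moved in opposite directions. Sesn3, a relative of Sesn2, fell by 0.32 on the log2 scale (adjusted p = 0.0495), a call lost without any 1 array except overexpression replicate 3 (adjusted p of up to 0.145), with array medians subtracted (adjusted p = 0.0963) and with the mean of its probe sets (-0.14, adjusted p = 0.268).

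Among 13 further p53 targets of cell death 1 rose and none fell. Siva1, a pro-apoptotic adaptor, read 11.35, 11.38 and 11.25 against 11.75, 11.72 and 11.79 (0.43, adjusted p = 0.00314). Of these 13 genes 7 were highest in overexpression replicate 2, 2 in replicate 1 and 4 in replicate 3. In the arrest and growth list those counts were 8, 5 and 2 of 15, and in the list of 12 repair and metabolism targets 6, 3 and 3, against 32.4% of all genes highest in replicate 2. In the apoptosis core machinery 1 of 19 genes was highest in replicate 2. The count was 4 of 17 for the p53 regulators and 4 of 13 for the family relatives. For the stress genes, with Sesn2 left out, it was 2 of 11. All of these counts use rank alone, whatever the gap between arrays. Psrc1, of the arrest and growth list, read 9.99, 10.01 and 9.95 with overexpression, whereas Zmat3 of that list read 9.01, 9.38 and 8.94. Dim genes count too, such as Fas at 4.05 in replicate 2, where the array median was 5.07. So does Btg2, which fell. As the lists were chosen with earlier results known, the counts are a description and no test.

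The 3 uncalled companion genes nearest the threshold are named here after their values were seen. Aen, a nuclease active in apoptosis, read 8.55, 8.83 and 8.76 in controls and 8.83, 9.57 and 9.49 with overexpression (0.58, adjusted p = 0.0523). Igfbp3, a binding protein of insulin-like growth factors, read 5.99, 6.01 and 5.72 against 6.77, 6.74 and 6.20 (0.66, adjusted p = 0.057). Eda2r, a death receptor relative, read 4.38, 4.20 and 4.53 against 4.79, 5.38 and 4.68 (0.58, adjusted p = 0.0595). Aen and Eda2r were highest in replicate 2 and Igfbp3 in replicate 1. Eda2r was dim, below the array medians of 5.03 to 5.10 in every array but overexpression replicate 2.

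Among the 12 repair and metabolism targets Slc19a2, a thiamine transporter, rose by 0.50 (adjusted p = 0.0318) and Fbxw7, a substrate receptor of a ubiquitin ligase, fell by 0.29 on the log2 scale (adjusted p = 0.0323). The call of Slc19a2 was lost without any 1 array except overexpression replicate 3, and that of Fbxw7 without any 1 except control replicate 1, with adjusted p of up to 0.119 and 0.121. Slc19a2 was not called with the mean of its probe sets either (0.33, adjusted p = 0.0747), nor was Fbxw7 with that mean (adjusted p = 0.126) or with array medians subtracted (adjusted p = 0.0987). Of 19 genes of the apoptosis core machinery, only Bcl2, which blocks mitochondrial death signals, was called. It read 7.91, 7.74 and 7.87 in controls and 8.63, 8.46 and 8.29 with overexpression (0.62, adjusted p = 0.00203).

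Of 13 family relatives of the members 1 rose and 3 fell. Tmem47, a membrane protein of the wider family of Perp, rose by 0.68 (adjusted p = 0.00105). Trp53inp2, an autophagy factor and the relative of Trp53inp1, read 10.36, 10.22 and 10.54 against 9.59, 9.89 and 9.39 (-0.75, adjusted p = 0.00901). Like Trp53inp1 it was lower in all 3 overexpression arrays and nearest the controls in replicate 2. The other falls in that list were Ccng2 and Sesn3. Relatives that were not called were Phlda1 (-0.09), Phlda2 (0.19), Cdkn1b (-0.30), Cdkn1c (0.06), Mdm4 (-0.18), Sesn1 (-0.14), Plk1 (0.02), Plk3 (-0.19) and Plk4 (0.18).

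A list of 12 stress genes controlled by the transcription factor Atf4 or induced with it, of which Sesn2 is also a member, had 12 positive differences, 2 of them called, with a median of 0.25 against -0.01 over all genes. Atf3, a stress-induced transcription factor, read 5.07, 5.14 and 5.03 in controls and 6.81, 6.15 and 6.78 with overexpression, a rise of 1.50 (SE 0.15; adjusted p = 0.000125). Its lowest overexpression array was replicate 2, the array in which most of the 10 members were highest. Asns, asparagine synthetase, rose by 0.70 (adjusted p = 0.00166). Of the 14 companion calls, those of Btg2, Ccng2, Epha2, Siva1, Bcl2, Trp53inp2, Tmem47, Asns and Atf3 held in every alternative run that tested them, and the other 5 were lost in a fit to the 6 YAP arrays alone.

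For each called member, the 3 other genes with the most similar values over the 6 YAP arrays were found by the root mean square difference, in log2 units, after subtracting each gene's control mean. For Phlda3 they were Tnnt1, a slow muscle troponin (0.145), Pxdc1 (0.253) and Hspb1, a small heat shock protein (0.289). Tnnt1 read 5.57, 5.62 and 5.59 in controls and 6.57, 7.26 and 6.07 with overexpression, the same order over the overexpression arrays as in Phlda3. For Ccng1 they were Septin4 (0.143), Pxdc1 (0.157) and the semaphorin Sema3b (0.17). For Trp53inp1 the nearest were Gpr22 (0.044), Fam241b (0.055) and 6330403K07Rik (0.057). All of these genes were picked for their values on these same arrays, so their differences are given as a description, with no test. With overexpression Septin4 differed by 0.74, Pxdc1 by 0.98, Hspb1 by 0.88 and Sema3b by 0.72, while with the mean of a gene's probe sets Hspb1 differed by 0.34 and Sema3b by 0.36. Gpr22 differed by -0.46, Fam241b by -0.50 and 6330403K07Rik by -0.51.

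**Figure D4:**
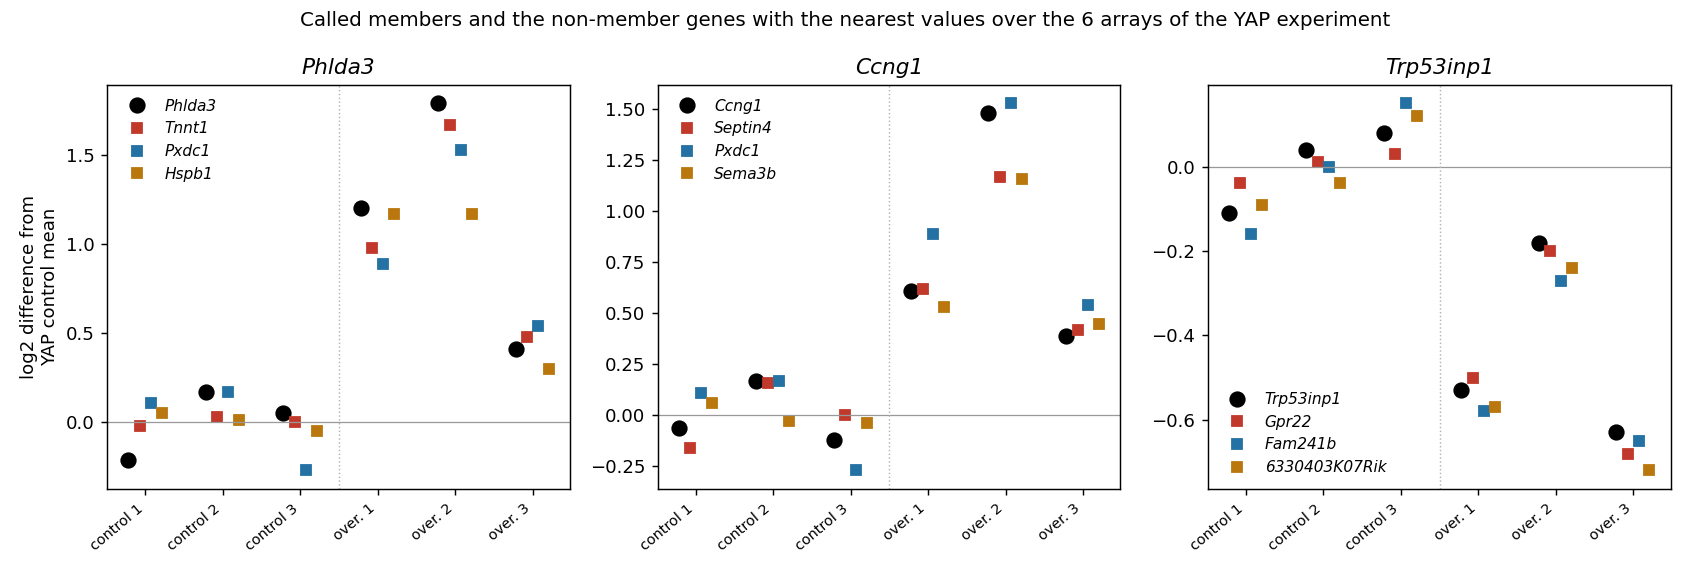
The 3 called members (black circles) and, for each, the 3 other genes with the nearest values (coloured squares). The y axis is the log2 difference from the YAP control mean, and the x axis the 3 control and 3 overexpression arrays, which share the same 6 libraries for all genes. In the Phlda3 panel replicate 2 is the highest for Phlda3 at 1.79 and Tnnt1 at 1.67, and Hspb1 is equally high in replicates 1 and 2 at 1.17.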

How the data were processed

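The deposited table gave log2 intensities per probe set, rounded at the second decimal. RMA, Affymetrix Expression Console 1.1 and Partek 6.5 appear in the submitters' processing notes, which give no role for them. Per the labels, 100 ng of total RNA was turned into biotinylated cRNA. Array medians of 5.03 to 5.10 and 4.30 to 4.42 in the 2 experiments showed separate normalization by the authors. Gene names came from the 2016 platform table, which gave 28898 probe sets a single symbol and 551 several, and 28689 were updated through Entrez identifiers. A gene's value is that of its brightest probe set, by the mean over the 12 arrays.

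A model with 4 group means was fitted with limma 3.58.1 in R 4.3.3 (8 residual and 4.096 prior degrees of freedom), and two-sided p-values received the Benjamini-Hochberg adjustment across 17097 genes, or over all 45037 probe sets where stated. An exact permutation test of 3 against 3 arrays cannot go below a p of 0.1 and was not used. On simulated data the fit recovered 57.6% of changes of 0.5 and 93% of changes of 1 in the YAP experiment, with 4.75% false calls, and 57.5%, 95.6% and 5.84% for Nf2. The simulation changed 200 genes and gave each gene the same SD in all groups. Several members spread unequally, such as Phlda3 with an SD of 0.69 with overexpression and 0.19 in YAP controls. These rates therefore need not apply to them. Precision is limited by how few arrays there are.

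The members and all gene lists were chosen with earlier results of these data known. Genes named were all members, companion genes called in either comparison, the family relatives, the 3 genes nearest each called member, and Yap1, Nf2, Ccn1 and Ccn2. Aen, Igfbp3 and Eda2r were added after their values were seen. Same-numbered Nf2 arrays had residual correlations of 0.271, 0.212 and 0.207, so the numbers may pair them. The labels state no pairing, and the main fit, which gave the differences and p-values above, used no pairing. Pairing by number was tried only as the replicate block among the alternatives. In the YAP experiment the correlations of same-numbered arrays were 0.0971, -0.195 and -0.204. Control and manipulated arrays with different numbers ran from -0.228 to -0.000108 for Nf2 and from -0.139 to 0.304 for YAP. Values as large as those of the same-numbered Nf2 arrays thus also arose between arrays of different number. Alternatives were a replicate block, other array scalings, a filter on dim genes, other probe set rules, fits to 6 arrays, array weights and leaving out each array.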

Additional observations from a re-analysis of the deposited data

Results flagged for a closer look

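The effects of YAP overexpression and Nf2 knockout differed by test for 3 of the genes named. The difference was 1.28 on the log2 scale for Epha2 (SE 0.16, limma adjusted p = 0.00505), which held in every alternative run that tested it. It was 1.36 for Atf3 (SE 0.21, adjusted p = 0.0193) and 0.92 for Ccn1 (SE 0.16, adjusted p = 0.0333), and those 2 calls were lost with the replicate block and without any of several single arrays, with an adjusted p of up to 0.0761 and 0.12. None of the 10 p53 response genes was among them. In the Nf2 arrays Epha2 (3.91 to 4.25) and Atf3 (3.45 to 3.82) were dim, below the array medians of 4.30 to 4.42. The filter on dim genes left both out. Single outlying arrays were not tested for, since groups held 3 arrays.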

How the results depend on the processing

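Of 218 values of single members under alternatives other than leaving out an array, 212 kept their direction and their side of the threshold. Perp turned from -0.02 to 0.01 with array medians subtracted. Cdkn1a was called with the dimmer genes left out (adjusted p = 0.0494). Trp53inp1 was not called with the mean of its probe sets. In a fit to the 6 YAP arrays alone 0 members were called, with adjusted p of 0.105 for Phlda3, 0.149 for Ccng1 and 0.123 for Trp53inp1, and 361 of all genes were called instead of 1078. With the replicate block the same 3 members were called for YAP and 0 for Nf2, while all genes called were 689 for YAP, 21 for Nf2 and 21 for the difference of the effects, against 1078, 43 and 48. The Nf2 count was 25 with its 6 arrays alone and 67 with array weights. The share of higher calls went from 42.3% to 52.8% for YAP with array medians subtracted, and from 81.4% to 91.7% for Nf2 with quantile normalization.

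Leaving out single arrays gave 0 to 4 members called for YAP, 0 for Nf2, and 0 to 1 for the difference. Over all genes the counts were 529 to 1241, 20 to 32 and 21 to 161. Without control replicate 3 none of the members was called for YAP. Over these fits Phlda3 ran from 0.80 to 1.49, Ccng1 from 0.50 to 1.05 and Trp53inp1 from -0.58 to -0.36. The sign of some uncalled members turned. For YAP, Pmaip1 ran from -0.13 to 0.35 and Perp from -0.12 to 0.08. For Nf2, Mdm2 ran from -0.06 to 0.03, Bbc3 from -0.18 to 0.08 and Sesn2 from -0.01 to 0.23. For the difference, Pmaip1 ran from -0.41 to 0.07 and Plk2 from -0.30 to 0.01. The causes were not tested.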
